A study of Homo sapiens with 3 samples.

Results

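The Hippo pathway and the genes its effector YAP switches on were followed in NCI-H1650 cells, a long-established line from a human lung adenocarcinoma, after exposure to colossolactone H (colo H in the labels), a triterpenoid of the fungus Ganoderma colossum. The set holds 38 genes, of which 21 are pathway components and 17 are published target genes of YAP and its paralog TAZ. They were chosen by gene symbol, with earlier differences between these arrays in view, so all of their values are a description and carry no test. Of the 38 genes, 37 had at least 1 probe set annotated to that gene alone, 122 probe sets in all, out of 19775 genes on the array. The groups were cells exposed to 40 μM for 12 h, cells exposed to 40 μM for 24 h, and control cells, with 1 array of total RNA in each. All were grown in RPMI-1640 with fetal calf serum, and the labels give neither a vehicle nor a collection time for the control. Each value therefore describes 1 culture on 1 array, no spread between replicates is known, and the number of arrays limits the precision.

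Hippo signalling is a kinase relay that restrains growth when cells are crowded or their cytoskeleton is relaxed. The kinases STK3 and STK4 (MST2 and MST1) activate LATS1 and LATS2, which phosphorylate the coactivators YAP1 and WWTR1 (TAZ) and keep them out of the nucleus. When the relay is off, YAP1 and WWTR1 enter the nucleus, bind the TEAD transcription factors and raise transcription of genes such as CCN1 and CCN2. Much of this control acts on proteins, which RNA arrays do not measure.

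Target genes were lower than in the control as a group, while the messages of the coactivators and of most components differed little. On the log2 scale the 15 measured targets had a median difference of -0.45 at 12 h and -0.45 at 24 h, against -0.04 and -0.07 for the 20 measured components and 0.00 and 0.00 for all 12341 measured genes. Of the targets 14 were lower at 12 h and 15 at 24 h, beside 48.4% and 49.9% of all measured genes. Of the components 12 were lower at each time. The targets lay below the components by 0.41 at 12 h and 0.39 at 24 h, as differences of medians. At 12 h 8 components lay above the highest target, and at 24 h 17 did. Both comparisons used the same control array, so their values are not independent of each other.

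Each gene was read from the brightest probe set annotated to it alone. It was taken as measured if that signal was above a floor of 61.4 units, the 50th percentile of all values, on at least 1 array. AMOT, an angiomotin that holds YAP at junctions, lay below the floor with 8.7 signal units at 12 h, 3.5 at 24 h and 18.6 in the control. ANKRD1, a nuclear ankyrin-repeat protein and a common YAP reporter, also lay below it, with 23.3, 21.3 and 28.8 units in the same order. NUAK2, a kinase related to AMPK, had only a probe set shared with AKIP1, which read 579 units at 12 h, 411.3 at 24 h and 663.8 in the control and entered no count. The other 35 members were above the floor on all 3 arrays.

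Signal levels across the whole arrays were close. The share of 54675 probe sets above the floor was 49.8% at 12 h, 50.1% at 24 h and 50.1% in the control. As a gauge of RNA degradation, the ACTB probe sets gave a 3′ to 5′ ratio of 5.38 at 12 h, 6.55 at 24 h and 4.95 in the control, and the GAPDH ratio lay between 1.21 and 1.25. The ACTB ratio was thus uneven and higher on both treated arrays. With 1 array per group RNA quality and treatment cannot be told apart, and its part in the differences was not tested. Of the epithelial markers EPCAM, KRT8, KRT18, KRT19 and CDH1 all 5 were measured, at a summed signal of 63484, 64477 and 65790 units at 12 h, at 24 h and in the control, although KRT19 was at -0.54 and -0.60. NKX2-1, a lineage factor of lung adenocarcinoma, was below the floor on all arrays, and SFTPB, a surfactant protein, read 183.8, 186.1 and 235.6. Of the other lineage markers NAPSA read 26.6, 74.9 and 49.1 in the same order, above the floor only at 24 h. SFTPA1 had no probe set annotated to it alone. Of 8 fibroblast markers 5, COL1A2, DCN, LUM, THY1 and PDGFRB, were below the floor on every array. The summed signal of the 8 was nevertheless lower in treated cells, at 1894 units at 12 h and 1554 at 24 h against 2194 in the control. Most of it came from COL1A1, COL3A1 and FAP, at 729.8, 876.9 and 470.9 units in the control. The labels name only the H1650 line and no fibroblasts. Several YAP targets are also expressed by fibroblasts, and whether the lower marker signal and the lower target values are related was not tested. Endothelial markers summed to 240.3, 210.6 and 322.7 units and leukocyte markers to 310.3, 340.6 and 354 units. In RNA of whole cultures, fewer cells of a type and less RNA per cell cannot be told apart.

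CCN1 and CCN2 encode matricellular proteins that signal through integrins and are the most used readouts of YAP. CCN1 (Entrez gene 3491) read 6708 units at 12 h and 8221 at 24 h, against 12208 in the control. Both treated arrays lay below the control, with 24 h between 12 h and control, and the differences were -0.86 and -0.57. Its other probe set read 1967 and 2294 units in treated cells against 4055 in control cells, or -1.04 and -0.82. CCN2 (Entrez gene 1490), with a single probe set, read 975.4 units at 12 h and 1070 at 24 h, against 1829 in the control. It was 1.87-fold lower at 12 h and 1.71-fold lower at 24 h, and only 0.713% and 2.02% of measured genes lay lower still.

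**Figure D1:**
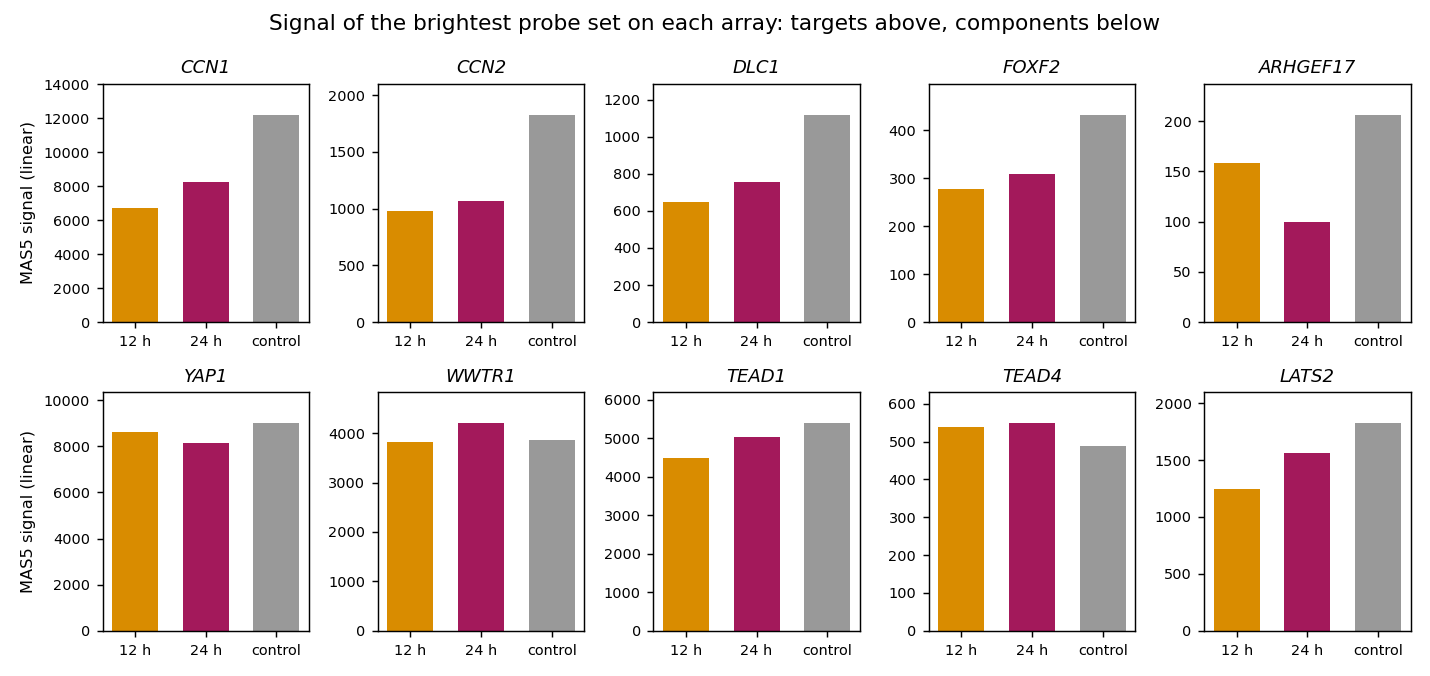
Linear MAS5 signal (y axis, from 0, its own scale for each gene) of the brightest probe set on the 12 h, 24 h and control arrays, 1 bar per array and no error bars because each group had 1 array. CCN1, CCN2, DLC1, FOXF2 and ARHGEF17 in the upper row were lower on both treated arrays, whereas in the lower row YAP1, WWTR1, TEAD1 and TEAD4 differed from the control by -0.26 to 0.17 on the log2 scale and LATS2 by -0.55 and -0.22.

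The other CCN genes gave little signal. CCN3, CCN4 and CCN6 were below the floor on all arrays, and CCN5 read 120.7, 84.2 and 113.4 units at 12 h, at 24 h and in the control, differences of 0.09 and -0.43.

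At 12 h 4 targets were at least 1.5-fold lower and none was higher by that fold, where 3.06% of all measured genes were lower and 3.37% higher by it. They were CCN2, CCN1, DLC1 and FOXF2. By its brightest probe set no target was 2-fold lower at 12 h, as 0.429% of measured genes were, while the dimmer CCN1 probe set was at -1.04. Among 10204 genes at least as bright as the dimmest measured target, 2.15% were 1.5-fold lower, a share computed after the values were seen.

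DLC1, a GTPase-activating protein that turns off RHOA, read 648.3 units at 12 h and 756.2 at 24 h, against 1118 in the control. The differences were -0.79 and -0.56 for this probe set, while a second one, at 383.4, 463.6 and 486.6 units, gave -0.34 and -0.07. Another DLC1 probe set, near the floor at 58.6, 86.1 and 79.2 units, was lower at 12 h but at 0.12 at 24 h, so the probe sets shared a direction at 12 h and not at 24 h. FOXF2, a forkhead transcription factor of mesenchyme, read 277 and 309.5 units in treated cells at 12 h and 24 h, against 432 in control cells. Its 1 probe set was 1.56-fold lower at 12 h and 1.40-fold lower at 24 h.

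At 24 h 2 targets, ARHGEF17 and CCN2, were at least 1.5-fold lower, beside 4.87% of all measured genes and 4.04% of the genes at least as bright as the dimmest target. None was 1.5-fold higher, as 4.04% of all measured genes were. GADD45B at -0.58, CCN1 at -0.57 and DLC1 at -0.56 lay just short of the 1.5-fold line. ARHGEF17, a guanine nucleotide exchange factor, was the 1 target past 2-fold, a fold at which 0.624% of measured genes were lower. It read 157.9 units at 12 h and 99.4 at 24 h, against 206.3 in the control, or -0.39 and -1.05. This was the dimmest of the measured targets and had 1 probe set. With the floor raised to the 65th percentile, 192.4 units, its difference became -0.10 at each time.

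**Figure D2:**
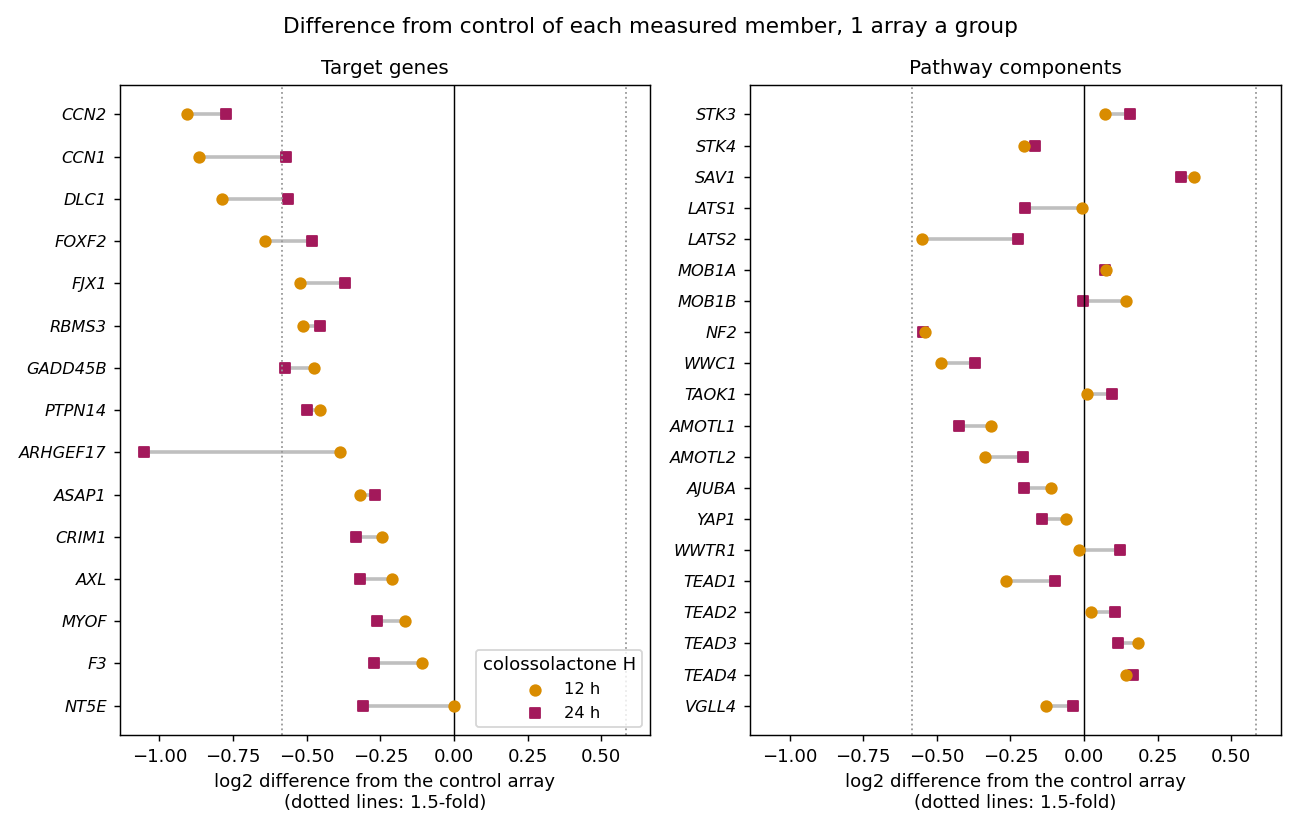
Log2 difference from the control array (x axis) of each measured target and component (y axis), circles for 12 h and squares for 24 h, 1 array a group. Apart from NT5E at 12 h, every target lies left of 0, while components fall on both sides between -0.55 and 0.37.

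GADD45B, a stress-induced partner of MAP kinase kinases, read 809.4 and 755 units in treated cells against 1125 in control cells, or -0.47 and -0.58. Its 1 transcript-specific probe set, near the floor at 95.1, 70.2 and 74.4 units, gave 0.35 at 12 h and -0.08 at 24 h. PTPN14, a phosphatase that restrains YAP, read 3919 and 3796 units against 5369 in the control. Of its 4 probe sets 3 were lower at each time, and the dimmest was at 0.15 and 0.38. RBMS3, an RNA-binding protein, was at -0.51 and -0.45, and all of its probe sets above the floor were lower. FJX1, related to a Golgi kinase of planar polarity in Drosophila, read 486 and 540.2 units in treated cells against 697.6 in control cells, differences of -0.52 and -0.37.

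At 12 h the 5 targets nearest to the control were NT5E, F3, MYOF, AXL and CRIM1. AXL, a receptor tyrosine kinase, read 2510 units at 12 h and 2324 at 24 h, against 2902 in the control, or -0.21 and -0.32, and its dimmer probe set gave -0.31 and -0.65. CRIM1, a transmembrane protein that binds bone morphogenetic proteins, was at -0.24 and -0.33, with all 3 probe sets lower at each time. F3, tissue factor, was at -0.11 and -0.27 from 1 probe set. MYOF, a ferlin of membrane repair, was at -0.17 and -0.26, although its transcript-specific probe set gave 0.15 at 24 h. NT5E, the nucleotidase CD73, read 526.1 units at 12 h, 425 at 24 h and 525.8 in the control. Its differences were 0.00 and -0.31, which turned to -0.01 and 0.04 when the 4 probe sets were summarised by their median. Inside the cell, ASAP1, a GTPase-activating protein for ARF, was at -0.32 and -0.27, and all 5 of its probe sets were lower at each time.

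Promoter sequences were searched because the targets were lower together. RefSeq windows of 300 bases (GRCh38.p14, from 250 bases before to 50 after a transcription start) were found for 30 of the 38 members, 12 targets and 18 components. None was found for the targets CCN1, DLC1, ARHGEF17, CRIM1 and ASAP1 or the components TEAD1, TEAD4 and STK3. Whether these hold the letters searched is not known here. The TEAD core GGAATG, searched on both strands and so also as CATTCC, was held by 6 of the 12 targets, which were CCN2, FOXF2, PTPN14, AXL, ANKRD1 and NUAK2. Of these ANKRD1 and NUAK2 have no measured difference. The core was held by 4 of the 18 components, which were YAP1, LATS2, AMOTL2 and AJUBA, and by 16.7% of 27305 genes in the table. Some targets are known as such through these very letters, so the count is no independent evidence. The letters TGANTCA were searched as a loose form of the AP-1 site, with any base in the middle. They were held by 2 targets (F3 and ANKRD1), by 2 components and by 9.37% of genes. The letters read the same on both strands and do not overlap the TEAD core in the members' windows. Among the members only F3 held a match with C or G in the middle, TGAGTCA. The other matches read TGAATCA or TGATTCA. The share of all genes with a C or G form was not counted.

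The 250 bases before the start are given for the 4 measured targets that hold the TEAD core, with the core in capitals. That of CCN2 lies at chr6:131951373-131951622 on the minus strand and holds 3 cores, starting 169, 104 and 95 bases before the start. FOXF2 at chr6:1389326-1389575 (plus strand), PTPN14 at chr1:214551603-214551852 (minus strand) and AXL at chr19:41226505-41226754 (plus strand) hold 1 core each, starting 196, 200 and 212 bases before it.
CCN2: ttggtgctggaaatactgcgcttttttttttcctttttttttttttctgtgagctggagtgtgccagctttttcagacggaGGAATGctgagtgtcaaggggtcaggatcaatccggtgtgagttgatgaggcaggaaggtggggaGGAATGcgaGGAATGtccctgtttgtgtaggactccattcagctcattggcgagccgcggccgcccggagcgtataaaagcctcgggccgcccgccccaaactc
FOXF2: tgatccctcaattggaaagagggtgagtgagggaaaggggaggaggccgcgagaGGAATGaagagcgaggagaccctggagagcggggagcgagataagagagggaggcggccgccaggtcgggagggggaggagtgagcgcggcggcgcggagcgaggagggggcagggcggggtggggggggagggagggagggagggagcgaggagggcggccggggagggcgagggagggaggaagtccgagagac
PTPN14: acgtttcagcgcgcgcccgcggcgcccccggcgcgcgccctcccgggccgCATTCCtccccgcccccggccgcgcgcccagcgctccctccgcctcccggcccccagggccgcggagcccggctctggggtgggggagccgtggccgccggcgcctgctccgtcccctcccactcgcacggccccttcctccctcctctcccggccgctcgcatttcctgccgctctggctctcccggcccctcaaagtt
AXL: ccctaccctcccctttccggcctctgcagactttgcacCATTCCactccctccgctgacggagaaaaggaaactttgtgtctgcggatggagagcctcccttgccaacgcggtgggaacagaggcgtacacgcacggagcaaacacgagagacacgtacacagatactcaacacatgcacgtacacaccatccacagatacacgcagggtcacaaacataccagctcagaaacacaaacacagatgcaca

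A match of letters does not show that a factor bound there.

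Among the effectors YAP1 (Entrez gene 10413) read 8610 units at 12 h and 8134 at 24 h, against 8989 in the control. The differences of -0.06 and -0.14 were smaller than the robust SD of the log2 differences of all measured genes, 0.255 at 12 h and 0.294 at 24 h. Its other probe sets lay on either side, at 0.06 and -0.14 at 12 h and 0.14 and -0.36 at 24 h. WWTR1, the paralog TAZ, read 3811 and 4194 units against 3856 in the control, or -0.02 and 0.12. A dimmer WWTR1 probe set read 712 units at 12 h and 1125 at 24 h against 637.1 in the control, so that at 24 h it stood at 0.82 while the remaining one was at -0.00.

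The TEAD factors bring the coactivators to DNA. TEAD1 read 4489 units at 12 h and 5027 at 24 h, against 5389 in the control, or -0.26 and -0.10, and a dim probe set gave -0.10 and 0.67. TEAD2 was at 0.02 and 0.11 and TEAD3 at 0.18 and 0.11. TEAD4 was at 0.14 and 0.17, but its second probe set, of similar brightness, gave -0.10 and -0.32. VGLL4, which competes with YAP for TEAD, was at -0.13 and -0.04, which turned to 0.04 and 0.13 as a median of its 2 probe sets. By its brightest probe set no member of this group reached 1.5-fold at either time. Of all measured genes 3.06% and 4.87% were that much lower at 12 h and 24 h, and 3.37% and 4.04% that much higher.

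In the kinase cassette LATS2 stood apart at 12 h. It read 1242 units at 12 h and 1560 at 24 h, against 1821 in the control, or -0.55 and -0.22, and its other bright probe set gave -0.35 and -0.24. LATS2 is itself a known YAP target and part of a feedback loop. LATS1 read 2163 and 1891 units in treated cells against 2173 in control cells, or -0.01 and -0.20, and its 12 h difference turned to 0.02 after median centring of the arrays. STK3 was at 0.07 and 0.16, and its 24 h difference turned to -0.05 as a median of 2 probe sets. STK4 was at -0.20 and -0.17, but a pair of its dimmer probe sets gave 0.82 and 0.79 at 24 h, and the median there was 0.07. SAV1, the scaffold of these kinases, was the highest component at 0.37 and 0.33, yet 3 of its 5 probe sets were lower at 12 h and 4 at 24 h, and the median over them was -0.15 and -0.16. MOB1A and MOB1B, adaptors that activate LATS, were at 0.07 and 0.07 and at 0.14 and -0.00. The median over the 4 MOB1A probe sets was -0.25 and -0.32.

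**Figure D3:**
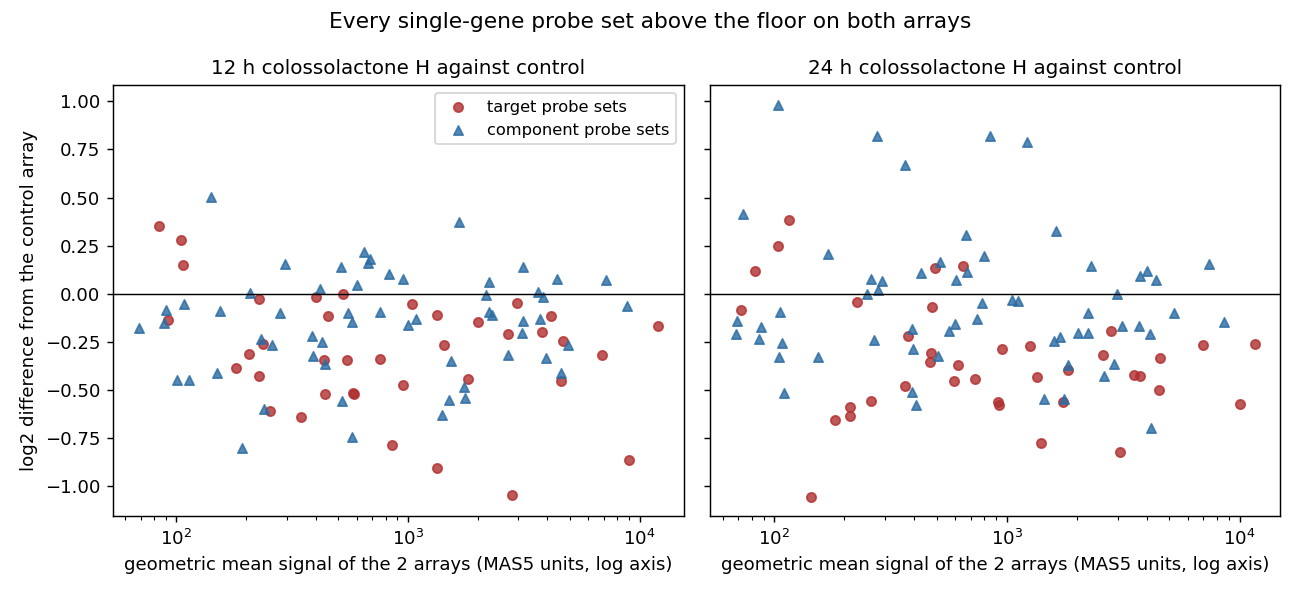
Log2 difference from control (y axis) against the geometric mean signal of the 2 arrays (x axis, log scale) for each single-gene probe set that exceeded the floor on both, circles for targets and triangles for components. At 12 h 34 of 38 target probe sets lie below 0 and 41 of 58 component probe sets do, beside 49.9% of all single-gene probe sets. Probe sets of the same gene are not replicates.

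By the brightest probe sets, upstream regulators were lower more than the cassette. Their median was -0.33 at 12 h and -0.29 at 24 h over 6 measured genes, against 0.07 and -0.00 for the 7 cassette genes. With the median over probe sets taken for each gene, the gap between these groups kept its direction but was much smaller at each time. NF2, the tumour suppressor merlin, read 1457 units at 12 h and 1450 at 24 h, against 2117 in the control, or -0.54 and -0.55. The dimmer NF2 probe sets above the floor lay on both sides of the control, between -0.41 and 0.15 at 12 h and between -0.33 and 0.07 at 24 h. The median over all NF2 probe sets was -0.12 and -0.07. WWC1, the scaffold KIBRA, was at -0.49 and -0.37, with 6 of 6 probe sets lower at 12 h and 5 of 7 at 24 h. AMOTL1 and AMOTL2, angiomotin-like junction proteins, were at -0.32 and -0.42 and at -0.34 and -0.21, and no probe set of either was higher. AJUBA, a LIM protein that inhibits LATS, was at -0.11 and -0.20. TAOK1, a kinase upstream of STK3 and STK4, was at 0.01 and 0.10, and its direction turned to -0.09 and -0.01 as a median of 6 probe sets.

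**Figure D4:**
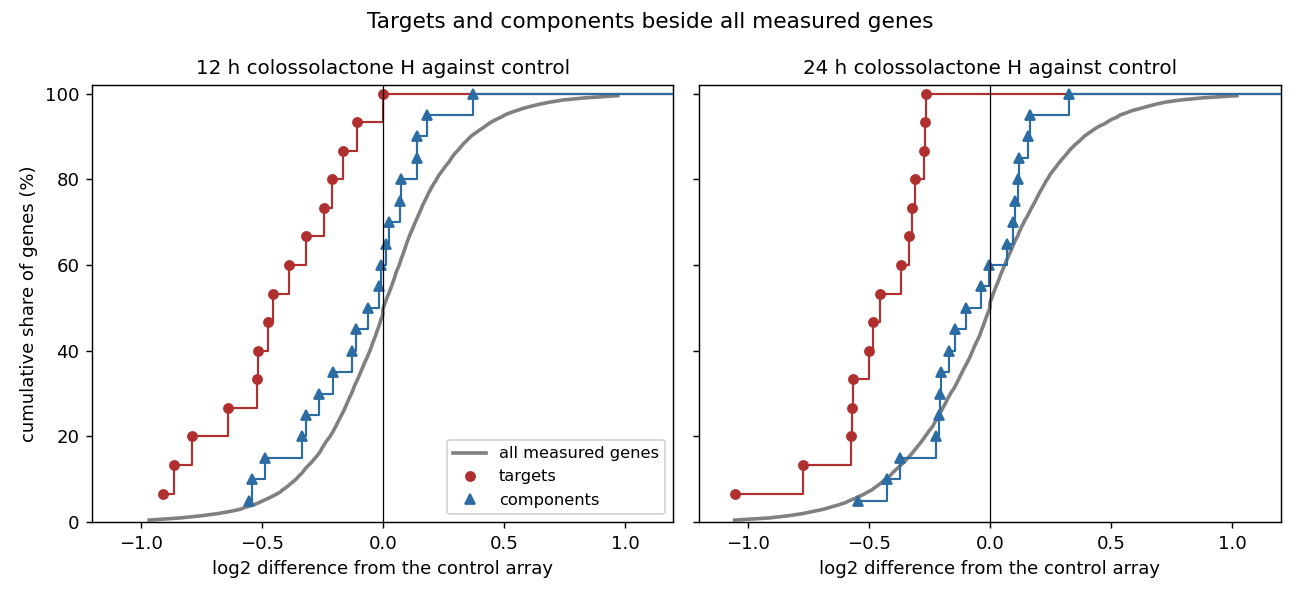
Cumulative share of genes (y axis, %) at or below each log2 difference from control (x axis) for the 15 measured targets, the 20 measured components and all 12341 measured genes (grey line). The middle of the target curve lies left of the grey line, with a median of -0.45 at each time, and the component curve crosses near it, at -0.04 (12 h) and -0.07 (24 h).

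By its brightest probe set no component reached 1.5-fold in either direction at either time. Of all measured genes 3.06% were that much lower and 3.37% higher at 12 h, and 4.87% and 4.04% at 24 h. A count of none among 20 components is near these shares. Other probe sets of some components did pass 1.5-fold, in both directions. Among them were WWC1 at 0.98 at 24 h, TAOK1 at -0.80 at 12 h and MOB1A at -0.69 at 24 h. LATS2, AMOTL2 and AJUBA are components that are also published targets. With these 3 left out, the component medians were -0.01 at 12 h and -0.00 at 24 h. With them counted as targets, 17 of 18 were lower at 12 h and 18 of 18 at 24 h, with medians of -0.42 and -0.35. This regrouping was chosen after the values were seen.

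All probe sets gave a smaller contrast than the brightest ones. Among probe sets of targets that exceeded the floor on both arrays compared, 34 of 38 were lower at 12 h and 33 of 38 at 24 h, with medians of -0.29 and -0.38. Component probe sets were lower in 41 of 58 cases at 12 h and 39 of 61 at 24 h, with medians of -0.13 and -0.13. Across all single-gene probe sets 49.9% and 49.8% were lower. Probe sets of a gene read the same RNA and are not replicates.

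Between the treated arrays the members differed less. The median of 24 h minus 12 h was -0.05 over the targets and 0.03 over the components, against -0.01 over all measured genes. Of the targets 8 of 15 were lower at 24 h than at 12 h, and 9 of 20 components, where 51.7% of all measured genes were. ARHGEF17 was the 1 member past 1.5-fold, at 99.4 units at 24 h against 157.9 at 12 h and a difference of -0.67, but both readings lie below the raised floor of 192.4. Of all measured genes 1.9% were that much lower at 24 h and 1.45% that much higher. LATS2 at 0.33, CCN1 at 0.29 and DLC1 at 0.22 were higher at 24 h than at 12 h, and NT5E was lower at -0.31. The difference of LATS2 was 0.11 with its transcript-specific probe set.

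A list of 9 further published targets, also drawn up with earlier results known, held 8 measured genes. Of these 7 were lower at each time, the median was -0.47 at 12 h and -0.74 at 24 h, and 3 and 5 were at least 1.5-fold lower. Of all measured genes 48.4% and 49.9% were lower, and 3.06% and 4.87% at least 1.5-fold lower. TGFB2, a transforming growth factor, read 327.9 units at 12 h and 242.5 at 24 h, against 833.4 in the control. EDN1, the vasoconstrictor endothelin-1, read 196.2 and 198.6 units against 402.5 in the control. TGM2, a transglutaminase, was at -0.70 and -0.68, and THBS1, the matrix protein thrombospondin-1, at -0.36 and -0.80. GADD45A, named after its values were seen, was the 1 that was higher, at 0.39 and 0.45.

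Of 41 other Hippo pathway genes 30 were measured, and 22 were lower and 8 higher at 12 h, with a median of -0.11, where 48.4% of all measured genes were lower. At 24 h 23 were lower and 6 higher, with a median of -0.12, where 49.9% of all measured genes were lower. VGLL3, a TEAD cofactor, was the lowest, at 2353 units at 12 h and 2317 at 24 h against 4402 in the control, or -0.90 and -0.93. VGLL1, another TEAD cofactor, was at -0.68 and -0.72, and FRMD6, a FERM-domain regulator upstream of the cassette, at -0.40 and -0.70. STRN4, a striatin of the phosphatase complex that opposes STK3 and STK4, was at 0.82 at 12 h and -0.04 at 24 h.

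CCN1, CCN2 and other YAP targets also respond to serum response factor. Of 14 such and cytoskeletal genes 12 were measured, the median was -0.21 at 12 h and -0.31 at 24 h, and 9 and 10 were lower, beside 48.4% and 49.9% of all measured genes. VCL, the adhesion protein vinculin, was at -0.42 and -0.32 and ZYX, zyxin, at -0.36 and -0.38. TAGLN, an actin-binding protein of smooth muscle, was at 0.73 and 0.51 from a signal of 67 in the control, and ACTA2, smooth muscle actin, at -0.24 and at least 1.60-fold lower at 24 h, where it lay below the floor. How far serum response factor shaped the target values was not tested.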

How the data were processed

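Total RNA of 3 NCI-H1650 cultures, 1 per group, was measured on Affymetrix arrays. Linear signal intensity per probe set was deposited by the authors. The submitters' processing notes name MAS5, with a version and settings not given in the sources used here. All 3 arrays had a mean of 500.1 once 2% of values was trimmed at either end, so no scaling was added. The platform annotation gave 1 gene for 41097 of 54675 probe sets, several for 1801 and none for 11777, and symbols were updated through Entrez identifiers (41043 matched). Array control probe sets entered no gene. A gene took its probe set with the highest mean log2 signal, values below the floor were set to it, and log2 differences of pairs of arrays were taken. With 1 array per group no p-value, standard error or replicate check exists. Counts are given at 1.5-fold and 2-fold. All members could be named, and of each further list at most the 4 genes that differed most from the control on average. GADD45A was added after its values were seen, and cell type markers are named outside this rule. The members and lists were chosen with earlier results of these data known. The procedure was tested on simulated data. The planted changes were larger in size than the target medians, and the noise was smaller than the robust SD of the real differences. The test therefore does not show how well differences as small as those medians are recovered. Alternatives covered scaling (median centring, quantile, cyclic loess with limma 3.58.1 in R 4.3.3), the floor (25th or 65th percentile, or none with a pseudocount of 1) and the probe set of a gene. Python 3.11.15, numpy 2.4.6 and pandas 2.3.3 were used.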

Additional observations from a re-analysis of the deposited data

How the results depend on the processing

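The 8 other settings for scaling, floor and probe set gave 822 values for the 105 differences of single members. Of these 783 moved by less than 0.183 on the log2 scale, the robust SD of all measured genes between the treated arrays, which stood in for a replicate spread. Of the other 39, 24 came from the median over probe sets, 12 from transcript-specific probe sets and 3 from the floor at the 65th percentile. The rescalings, the lower floor and the pseudocount moved none. The lower floor did admit ANKRD1 and AMOT to the lists. With them the target medians were -0.42 at 12 h and -0.445 at 24 h, and the component medians -0.06 and -0.10. The other measured members lay above the main floor on every array, so the lower floor could change none of their values. Much of the 783 thus comes from settings that could move little. Transcript-specific probe sets existed for 13 measured targets and 16 components. No difference past 1.5-fold changed sign under these settings. Smaller ones against the control changed sign for 10 components and 3 targets (NT5E, GADD45B and MYOF). The target median lay between -0.47 and -0.26 at 12 h and between -0.46 and -0.37 at 24 h, and the component median between -0.12 and -0.01 and between -0.17 and -0.06. As the median over probe sets the 12 h target median was -0.26, and 13 of 15 targets were lower at 24 h. In this setting a probe set below the floor on both arrays counts as no difference, which pulls medians toward the control. LATS1 and DLC1 at 24 h stood at 0.00 in this way, and NF2 and LATS2 were moved by it too. At 24 h 1 target was 1.5-fold lower with the floor at the 65th percentile, and 3 were under quantile normalization, cyclic loess and the median over probe sets. With no floor 1 component, AMOT, was 1.5-fold lower at each time, at signals where order means little. The causes of these shifts beyond the settings themselves were not tested. No paired analysis was possible because each group had 1 array. Signal near the floor, as for ARHGEF17, limits what can be read.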
